A study of Mus musculus with 8 samples.

Results

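Of the 49315 genes counted, 10 of necroptosis and death-receptor signalling were followed in bone marrow-derived macrophages (BMDMs) after knockdown of the long non-coding RNA MAARS. They were taken by name, as the rows whose Ensembl identifiers carry the GENCODE M21 symbols Tnfsf10, Fas, Tnfrsf10b, Fadd, Casp8, Cflar, Zbp1, Ripk1, Ripk3 and Mlkl. All 10 were found, and all 10 passed the filter on low counts that left 13051 genes for testing. BMDMs are primary macrophages that grow out of marrow in culture, here from C57BL/6 mice (age not given) and under macrophage colony-stimulating factor (M-CSF) at 10 ng/ml. Every culture received a gapmeR, an antisense oligonucleotide that directs RNase H to a chosen RNA, at 25 nM in the sample labels and with the transfection reagent Lipofectamine 3000. In 4 libraries (replicates 2, 5, 6 and 7) it was negative control #1, and in 4 others (replicates 9, 11, 13 and 15) it was directed against MAARS. The samples used here include neither untransfected cells nor a second control oligonucleotide, so loss of MAARS and other responses to this gapmeR cannot be told apart, and no death stimulus was among the labelled treatments. The labels do not say whether the libraries came from separate mice or cultures, so the p-values measure the spread between these libraries, which may be technical.

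Death receptors are cell-surface proteins of the tumour necrosis factor (TNF) receptor family whose intracellular death domains recruit the adaptor FADD when a ligand such as TRAIL binds. FADD gathers caspase-8, a protease that starts apoptosis, and c-FLIP, the catalytically dead relative encoded by Cflar that holds caspase-8 in check. When caspase-8 is blocked, RIPK1 and RIPK3, kinases that share a RIP homotypic interaction motif (RHIM), assemble and RIPK3 phosphorylates MLKL, which then permeabilises the plasma membrane in the lytic death called necroptosis. ZBP1, a sensor of Z-form nucleic acids with its own RHIM, can engage RIPK3 without any death receptor. In macrophages these routes are known as answers to infection and as sources of necrotic debris in plaques.

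Gene counts per library totalled 19287279 to 24541205, with more in every MAARS gapmeR library than in any control library. Levels are given as CPM, counts scaled to a common library size with TMM factors, and differences as log2 fold changes of MAARS gapmeR over control gapmeR. Called means an adjusted p under 0.05 in the quasi-likelihood test of edgeR, adjusted by Benjamini-Hochberg over all genes tested. MAARS itself (Gm14461) lay between 12.2 and 15.1 CPM with control gapmeR and between 5.85 and 7.71 CPM with MAARS gapmeR, a log2 fold change of -0.95 (standard error, SE, 0.112, edgeR adjusted p = 5.8e-05), in the direction the labels give. The BMDM label was checked against 6 macrophage genes, which summed to between 12900 and 16200 CPM in the control libraries and between 16700 and 19900 CPM with MAARS gapmeR. Of these, Csf1r, Itgam, Mertk and Lyz2 rose, Cd68 fell, and Adgre1 did not pass. T cell, NK cell, erythroid, dendritic, mast and B cell markers each summed to under 2.5 CPM in every library. Neutrophil markers summed to between 84.4 and 244 CPM and fibroblast markers to between 235 and 624 CPM, with overlapping groups for both. The fibroblast sum was mostly Col1a1, at 213.6 to 580.9 CPM. Pdgfra was at 3.36 CPM or less and Dcn at 4.62 CPM or less in every library. The 3 endothelial markers summed to between 16.0 and 20.2 CPM with control gapmeR and between 5.88 and 7.08 CPM with MAARS gapmeR, almost wholly through Kdr (log2 fold change -1.54, edgeR adjusted p = 4.19e-06). The defining endothelial markers Cdh5 and Tek were at 2.05 CPM or less and 0.159 CPM or less in every library. In bulk libraries a smaller number of cells of one type and less RNA in each cell cannot be told apart.

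Across the 10 genes, 6 were lower with MAARS gapmeR (Zbp1, Tnfsf10, Mlkl, Fadd, Cflar and Casp8), 1 was higher (Fas), and 3 did not pass (Ripk1, Ripk3 and Tnfrsf10b). Over all genes tested, 24.0% were called lower and 21.3% higher. The share lower was above that background and the share higher below it, with no test of either difference. The 10 genes were chosen with earlier results of these data known, so these differences may partly follow from that choice. The 6 lower genes were also the ones whose MAARS gapmeR libraries all lay below all control libraries, against 22.8% of all genes tested, and none of the 10 had groups wholly apart in the other direction, against 19.3%. The median log2 fold change of the 10 genes was -0.19, and that of all genes tested was 0.01. The sizes fell into steps, in which Zbp1 fell by 89.1%, Tnfsf10 fell by 85.7%, Mlkl fell by 47.0%, Fadd fell by 27.6%, Cflar fell by 15% and Casp8 fell by 9.71%. When upper-quartile factors replaced TMM, 60.4% of all called genes were higher instead of 47.0%. With those factors 5 of the 10 genes were lower and 2 higher, against 2379 lower and 3622 higher of all 13051 genes tested.

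**Figure D1:**
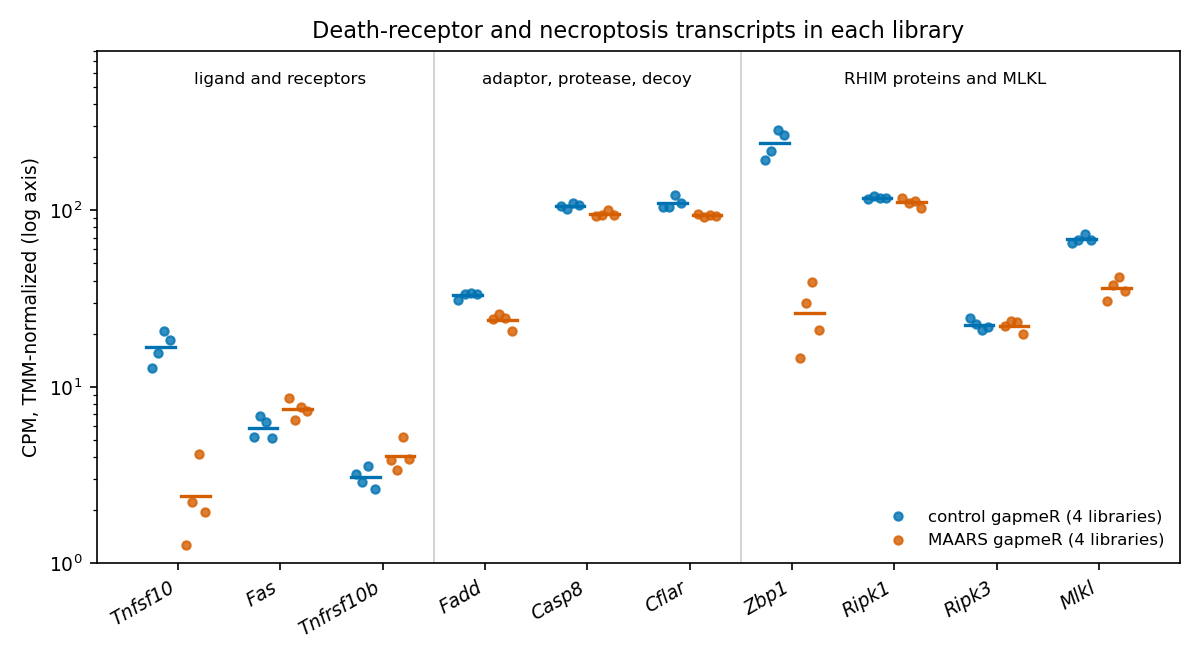
TMM-normalized CPM (log axis) of the 10 genes in each of the 4 control gapmeR (blue) and 4 MAARS gapmeR (orange) libraries, with a bar at each group mean. The Zbp1 points fall from between 193.2 and 283.3 CPM to between 14.6 and 39.0 CPM, and those of Ripk1 and Ripk3 overlap between the groups.

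Among the ligand and receptors, Tnfsf10 encodes TRAIL, the TNF family ligand that engages death receptors on target cells. It lies on chromosome 3 from 27317028 to 27342427 (plus strand, GRCm38). Control libraries 2, 5, 6 and 7 held 12.7, 15.6, 20.6 and 18.5 CPM, and MAARS gapmeR libraries 9, 11, 13 and 15 held 1.28, 2.23, 4.18 and 1.95 CPM. The highest MAARS gapmeR library was thus far below the lowest control library. The log2 fold change was -2.81 (SE 0.266, edgeR adjusted p = 1.35e-05), a 6.99-fold lower level resting on 27 to 91 counts in each MAARS gapmeR library. In the order of the 13051 log2 fold changes from the lowest, Tnfsf10 was at place 63 and Zbp1 at place 48. Its promoter window, the 250 bases before and 50 after the RefSeq start site, is shown because Tnfsf10 changed most among the genes with a window (RefSeq, GRCm38.p6, chr3:27316827-27317126, plus strand, 5′ to 3′), with capitals at matches to AANNGAAA, the letters that interferon regulatory factors are known to read.
Tnfsf10: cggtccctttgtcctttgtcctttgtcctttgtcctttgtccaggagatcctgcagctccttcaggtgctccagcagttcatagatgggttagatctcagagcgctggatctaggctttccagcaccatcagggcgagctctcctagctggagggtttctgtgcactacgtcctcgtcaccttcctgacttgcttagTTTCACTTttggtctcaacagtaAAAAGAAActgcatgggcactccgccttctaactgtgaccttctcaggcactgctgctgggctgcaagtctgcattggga
One of these matches lies 53 to 46 bases before the start site on the minus strand and the other 30 to 23 bases before it on the plus strand. This 8-letter pattern occurs in 23.9% of the 32851 windows of this length and is therefore common.

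Tnfrsf10b encodes the death receptor that binds TRAIL in mice, on chromosome 14 from 69767472 to 69784411. It was scarce, with 3.23, 2.90, 3.57 and 2.65 CPM in control libraries 2, 5, 6 and 7 and 3.83, 3.38, 5.19 and 3.90 CPM in MAARS gapmeR libraries 9, 11, 13 and 15. The groups overlapped, since library 11 lay below control library 6. Its log2 fold change of 0.40 (SE 0.168, 95% interval 0.03 to 0.77) had an adjusted p of 0.0731 from edgeR and did not pass. Without MAARS gapmeR replicate 11 the adjusted p was 0.0493, and with upper-quartile factors 0.0409, both from edgeR. Fas, the receptor for Fas ligand on chromosome 19 from 34290666 to 34327772, was called higher by a narrow margin. Control libraries 2, 5, 6 and 7 had 5.17, 6.83, 6.33 and 5.11 CPM and MAARS gapmeR libraries 9, 11, 13 and 15 had 8.61, 6.49, 7.72 and 7.32 CPM, so library 11 again lay inside the control range. The log2 fold change was 0.36 (SE 0.131, edgeR adjusted p = 0.0419). Fas did not pass in 6 of the 8 fits that left out a library, with adjusted p of 0.0924, 0.0546 and 0.111 without control replicates 2, 6 and 7 and of 0.117, 0.0852 and 0.0661 without MAARS gapmeR replicates 9, 13 and 15 (all from edgeR). Fasl, which encodes the ligand of Fas and was named for that reason and not by the rule for pathway genes, had 0 counts in all 8 libraries, which allows up to 0.119 to 0.162 CPM per library at 3 counts (counting error only).

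The adaptor and protease tier moved by smaller amounts. Fadd, the death-domain adaptor on chromosome 7 from 144577318 to 144582463 (minus strand), held 31.1, 33.5, 34.0 and 33.7 CPM in control libraries 2, 5, 6 and 7. In MAARS gapmeR libraries 9, 11, 13 and 15 it held 24.3, 26.0, 24.6 and 20.8 CPM. All 4 lay below all controls, with a log2 fold change of -0.47 (SE 0.0716, edgeR adjusted p = 0.000339). Of its exonic bases 6.1% overlap Faddos on the opposite strand, and reads there cannot be assigned without the strand setting of the counting, which the sources used here do not give.

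Casp8 and Cflar are neighbours on chromosome 1, with Cflar from 58711508 to 58758884 and Casp8 from 58795374 to 58847503 on the same strand, 36.5 kb apart. Cflar held 104.7, 104.7, 121.2 and 109.5 CPM in control libraries 2, 5, 6 and 7 and 95.3, 91.8, 94.2 and 92.9 CPM in MAARS gapmeR libraries 9, 11, 13 and 15. The groups did not overlap, the control libraries spread more widely (7.09% coefficient of variation against 1.61%), and the log2 fold change was -0.23 (SE 0.0523, edgeR adjusted p = 0.00376). Casp8 held 105.3, 101.0, 110.0 and 106.4 CPM in control libraries 2, 5, 6 and 7 and 92.9, 93.9, 100.5 and 94.2 CPM in MAARS gapmeR libraries 9, 11, 13 and 15. Its groups were separated by less than 1 CPM, at control library 5 and MAARS gapmeR library 13, and the log2 fold change was -0.15 (SE 0.0449, edgeR adjusted p = 0.0196). The call on Casp8 was lost with upper-quartile factors (adjusted p = 0.14), without control replicate 6 (0.0516) and without MAARS gapmeR replicate 11 (0.0526), all from edgeR. Within a library, Cflar and Casp8 kept close to equal counts, which take no account of gene length. The ratio of Cflar to Casp8 was 0.06 ± 0.062 on the log2 scale with control gapmeR and -0.03 ± 0.0531 with MAARS gapmeR (SD, n = 4 each), a difference of -0.08 that did not pass (two-sided exact permutation test, p = 0.0571, adjusted over 4 ratios 0.0762).

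The promoter windows of this pair are shown because the genes lie side by side and were both called lower (RefSeq, GRCm38.p6, chr1:58711241-58711540 for Cflar and chr1:58802252-58802551 for Casp8, both plus strand, 5′ to 3′). Capitals mark the core of the interferon-stimulated response element (ISRE), which is GAAA, any 2 bases and GAAA, or the shorter AANNGAAA that lies within it, on either strand.
Cflar: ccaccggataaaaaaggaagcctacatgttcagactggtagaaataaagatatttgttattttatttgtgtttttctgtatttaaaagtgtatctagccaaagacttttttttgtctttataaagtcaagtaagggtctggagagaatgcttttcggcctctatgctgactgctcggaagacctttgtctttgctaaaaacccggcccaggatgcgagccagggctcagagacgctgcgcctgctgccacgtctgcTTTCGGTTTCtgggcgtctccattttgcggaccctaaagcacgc
Casp8: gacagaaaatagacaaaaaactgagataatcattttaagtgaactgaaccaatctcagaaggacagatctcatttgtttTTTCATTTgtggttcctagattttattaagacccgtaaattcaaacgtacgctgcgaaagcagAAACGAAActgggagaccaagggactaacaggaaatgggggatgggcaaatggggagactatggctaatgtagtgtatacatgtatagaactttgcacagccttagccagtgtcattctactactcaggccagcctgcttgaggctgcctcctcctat
The Cflar window has a full ISRE core, 7 to 16 bases after the start site on the minus strand, a pattern found in 3.44% of all windows. The Casp8 window, whose RefSeq start lies inside the GENCODE span of the gene, has only AANNGAAA, at 171 to 164 and at 108 to 101 bases before the start site.

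The sensor Zbp1 changed more than any other of the 10 genes. It lies on chromosome 2 from 173206612 to 173218923 (minus strand), and its exons overlap no other gene. Control libraries 2, 5, 6 and 7 held 193.2, 216.3, 283.3 and 266.0 CPM, and MAARS gapmeR libraries 9, 11, 13 and 15 held 14.6, 29.9, 39.0 and 20.98 CPM. The least depleted MAARS gapmeR library was therefore still well under the lowest control. The log2 fold change was -3.20 (SE 0.244, 95% interval -3.73 to -2.66, edgeR adjusted p = 5.27e-06), a 9.16-fold lower level. The spread among libraries was wide in both groups, with coefficients of variation of 17.5% and 40.8%.

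Neither RHIM kinase passed the test. Ripk1, the kinase and scaffold of the TNF receptor complex on chromosome 13 from 34002363 to 34037147, held 115.8, 119.9, 117.3 and 117.3 CPM in control libraries 2, 5, 6 and 7 and 117.5, 109.5, 113.2 and 103.2 CPM in MAARS gapmeR libraries 9, 11, 13 and 15. The groups overlapped at library 9, and the log2 fold change of -0.08 did not pass (SE 0.047, edgeR adjusted p = 0.161), with a 95% interval of -0.19 to 0.02. Of its exonic bases 6.1% are shared with Gm17084 on the same strand and 2.9% overlap Serpinb6a on the other. Ripk3, the kinase that activates MLKL, lies on chromosome 14 from 55784995 to 55788865. It held 24.7, 22.7, 20.98 and 21.7 CPM in control libraries 2, 5, 6 and 7 and 22.0, 23.5, 23.2 and 19.9 CPM in MAARS gapmeR libraries 9, 11, 13 and 15, with the groups mixed. Its log2 fold change of -0.02 did not pass (edgeR adjusted p = 0.814) and had a 95% interval of -0.19 to 0.14. With upper-quartile factors the Ripk3 value was 0.04 and with TMM -0.02, so it has no settled sign. The ratio of Ripk3 to Ripk1 within a library was -2.39 ± 0.11 and -2.32 ± 0.0875 on the log2 scale (SD, n = 4 each), a difference of 0.06 (two-sided exact permutation test, p = 0.371, adjusted over 4 ratios 0.371).

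Mlkl, the pore-forming executioner, lies on chromosome 8 from 111311797 to 111338177 (minus strand). It held 64.9, 68.0, 73.5 and 67.8 CPM in control libraries 2, 5, 6 and 7 and 30.7, 37.6, 42.1 and 34.9 CPM in MAARS gapmeR libraries 9, 11, 13 and 15. The groups stood well apart, with a log2 fold change of -0.91 (SE 0.0839, edgeR adjusted p = 1.12e-05). Its window is shown as the counterpart of those above (RefSeq, GRCm38.p6, chr8:111338156-111338455, minus strand, 5′ to 3′), and holds no match to the ISRE core, AANNGAAA or TTCNNNGAA, the last being the core of the gamma-activated site.
Mlkl: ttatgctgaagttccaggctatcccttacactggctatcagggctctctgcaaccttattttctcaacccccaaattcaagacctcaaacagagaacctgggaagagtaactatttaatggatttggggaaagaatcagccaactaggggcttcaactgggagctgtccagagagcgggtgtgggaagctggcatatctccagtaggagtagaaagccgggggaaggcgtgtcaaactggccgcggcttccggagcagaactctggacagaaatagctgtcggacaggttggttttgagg
Relative to Casp8 in the same library, Mlkl counts went from -0.62 ± 0.0601 to -1.40 ± 0.149 on the log2 scale (SD, n = 4 each), a difference of -0.78. Zbp1 relative to Ripk3 went from 3.40 ± 0.356 to 0.14 ± 0.565 (SD, n = 4 each), a difference of -3.25. In both ratios the groups did not overlap, and the two-sided exact permutation p of 0.0286 was the smallest that 4 against 4 allow. Adjusted over the 4 ratios it was 0.0571 for each, which does not pass 0.05, and these ratios do not depend on how libraries are scaled.

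**Figure D2:**
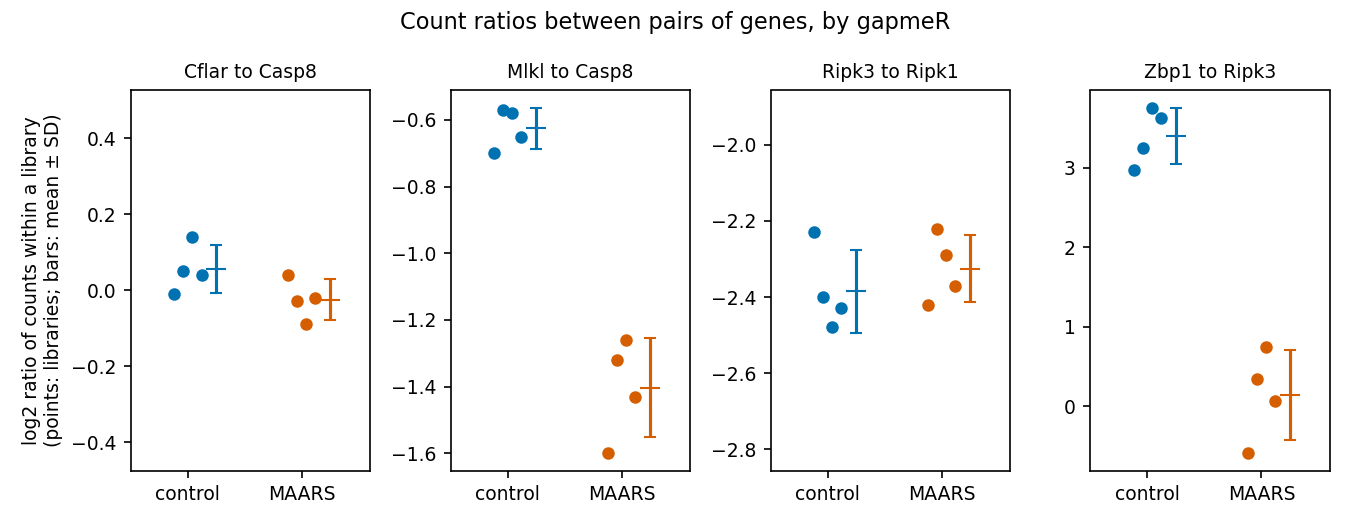
Log2 ratio of counts within each library for 4 pairs of genes, by group, with points for libraries and bars for the mean ± SD (n = 4 each). Each panel has its own range on the vertical axis. Mlkl to Casp8 and Zbp1 to Ripk3 separate the groups, and Cflar to Casp8 and Ripk3 to Ripk1 overlap.

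**Figure D3:**
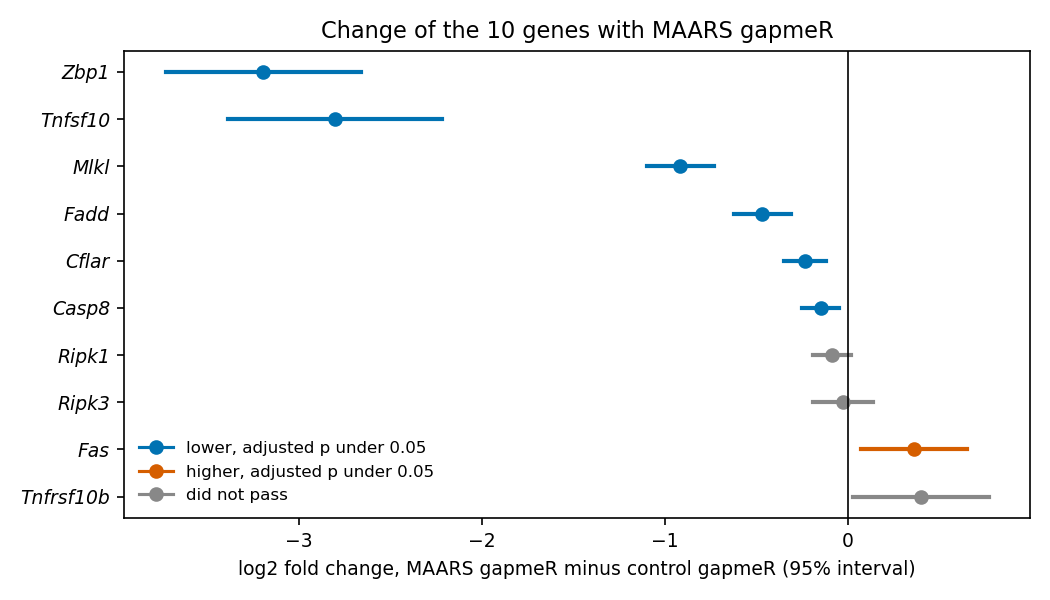
Log2 fold change of the 10 genes with its 95% interval from the edgeR fit, coloured by call. Zbp1 at -3.20 and Tnfsf10 at -2.81 stand apart from Mlkl at -0.91, and the intervals of Ripk1 and Ripk3 include 0.

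Apart from the count ratios above, levels of different genes were compared per kilobase of exon, as CPM per kb of the union of annotated exons. With control gapmeR the order ran from Zbp1 (67.9 ± 11.9 CPM per kb) through Casp8 (36.5 ± 1.27), Mlkl (29.8 ± 1.57), Ripk1 (14.1 ± 0.208), Ripk3 (9.83 ± 0.70), Cflar (8.68 ± 0.615), Fadd (8.47 ± 0.343), Tnfsf10 (3.20 ± 0.649) and Fas (2.84 ± 0.415) to Tnfrsf10b (0.566 ± 0.073) (SD, n = 4). Ripk3 and Cflar, Cflar and Fadd, and Tnfsf10 and Fas were neighbours closer than the sum of their SDs. With MAARS gapmeR, Casp8 came first (33.0 ± 1.20 CPM per kb), Zbp1 (7.40 ± 3.02) lay within the summed SDs of its neighbours Ripk3 (9.67 ± 0.703) and Cflar (7.38 ± 0.119), and Tnfsf10 was last (0.458 ± 0.237), within the summed SDs of Tnfrsf10b (0.748 ± 0.143). The exon union of Cflar, 12669 bases, is long, so its level per kb is low for its counts.

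To see what else had the same pattern, the genes with the highest Pearson r of log2 CPM over the 8 libraries were listed as a description, without a test. For Zbp1 these were Ifitm3 (r = 0.9998), Ube2l6 (r = 0.9995) and Ifi211 (r = 0.9994). For Mlkl they were H2-T24 (r = 0.999), Gm12250 (r = 0.9988) and Isg15 (r = 0.9983). The 2 groups lie apart in all of these genes, so r mostly carries the group difference, and all genes share the same 8 libraries. With group means taken off, r with Zbp1 was 0.997 for Ifitm3, 0.996 for Ube2l6 and 0.995 for Ifi211. With Mlkl it was 0.99 for H2-T24, 0.986 for Gm12250 and 0.977 for Isg15. These genes were picked for a high r among all genes tested, so high values partly follow from that choice. A reference list of 10 interferon-stimulated genes, chosen with earlier results of these data known, had all 10 called lower, against 24.0% of all genes tested. The list had a median log2 fold change of -3.32. Its summed level was 3460, 4110, 5240 and 4950 CPM in control libraries 2, 5, 6 and 7 and 258, 587, 788 and 391 CPM in MAARS gapmeR libraries 9, 11, 13 and 15. In both groups the libraries stood in the same order for this sum as for Zbp1 and for Tnfsf10, with library 2 lowest and library 6 highest among controls and library 9 lowest and library 13 highest among MAARS gapmeR libraries. Mlkl had the same order with MAARS gapmeR, and with control gapmeR libraries 5 and 7 changed places. The part of interferon signalling in the fall of these genes was not tested.

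Only a few short sequence patterns were searched for in the 10 genes. RefSeq promoter windows were matched for 8 of the 10, in 9 windows since Ripk1 has 2 start sites, and Zbp1 and Tnfrsf10b had no entry. The ISRE core was present in 2 of the 9 windows, that of Cflar and 1 of Ripk1, against 3.44% of all windows. AANNGAAA, which the ISRE core contains, was present in 5 of 9, against 23.9% of all windows (both strands searched). That search was added after windows and results had been seen. TTCNNNGAA, which reads the same on both strands, was present in 2 of 9, those of Fas and of Ripk1, against 8.30% of all windows. A full match thus occurred both in a gene called lower and in one that did not pass. Because the study concerns HuR, a protein that binds AU-rich elements, ATTTA pentamers were counted in the longest annotated 3′ untranslated region of each gene. Of the 10 genes 7 had at least 1, against 70.7% of the 11670 tested genes with such a region of at least 50 bases. Cflar had 13 in 4962 bases, Tnfsf10 had 8 in 3998 bases, Casp8 had 3 in 749 bases (4.01 per kb, against a median of 1.33 per kb), and Zbp1 had 1 in 605 bases. Mlkl, Ripk3 and Fas had none. Ripk1 had 7 in 4365 bases and Tnfrsf10b had 4 in 1845 bases, and neither of these genes was called. Fadd, which was called lower, had 2 in 3211 bases. Only ATTTA was counted, and the paper lists other AU-rich elements for HuR. A gene without ATTTA may therefore still hold such elements, and the part of HuR was not tested.

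The other genes of the pathway were taken from a list of 82, of which 78 were tested. That list was also chosen with earlier results of these data known, so its shares may partly follow from that choice. With MAARS gapmeR 36 were lower, 5 were higher and 37 did not pass, and their median log2 fold change was -0.12. These counts, and those of each group, stand beside 24.0% lower and 21.3% higher over all genes tested. With upper-quartile factors 9 were higher, against 3622 of all 13051 genes tested. With a fold of at least 1.5 also asked 11 were lower and 0 higher, beside 6.31% and 7.35% of all genes tested. In each group the 2 genes with the smallest p are named, so their small p partly follows from that choice. Among the ligands, 4 of 5 tested were lower and none higher. Tnf, the ligand of the TNF receptors, fell from 12.7 ± 1.72 to 5.66 ± 0.526 CPM (log2 fold change -1.17, edgeR adjusted p = 1.9e-05), and the scarce Tnfsf15 fell from 1.20 ± 0.433 to 0.281 ± 0.118 CPM (SD, n = 4 each). Tnfsf15 had 15 to 33 counts per library with control gapmeR and 4 to 9 with MAARS gapmeR. It passed the filter on low counts through the control group only, which favours a fall, and it is among the 4 lower ligands. Of 9 receptors and decoys tested 4 were lower, among them Tnfrsf23, a decoy receptor for TRAIL, by 0.58 and the related Tnfrsf26 by 0.66 on the log2 scale. No receptor on the list was called higher. Tnfrsf23 and Tnfrsf26 have close copies beside them and overlap a transcript on the opposite strand by 4.1% and 3.3% of their exonic bases, so their counts carry that uncertainty.

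Of 10 receptor adaptors and ubiquitin ligases, 6 were lower and 1 higher. Rnf31, the catalytic subunit of the linear ubiquitin ligase that restrains RIPK1, had a log2 fold change of -0.56 and Birc2, which encodes cIAP1, had -0.45. The deubiquitinase group had 4 of 7 lower and none higher, with Tnfaip3, which encodes A20, at -0.65 and its partner Tnip1 at -0.41. Of 10 checkpoint kinase genes, which include kinases known to phosphorylate RIPK1 and their partners, 4 were lower and 1 higher, against 24.0% and 21.3% of all genes tested. Ikbke had -0.56 and Mapkapk2, the kinase MK2, had -0.26. These 6 named genes had adjusted p between 2.09e-05 and 0.00049 from edgeR, and for all 6 the groups did not overlap. Of all genes tested, 22.8% had groups apart in the lower direction. The 6 genes were named for their small p, so the lack of overlap partly follows from that choice.

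The RHIM inputs and nucleic acid sensors had 5 of 7 lower and none higher, beside the same 24.0% and 21.3%. Tlr3, the receptor for double-stranded RNA that signals to RIPK1 and RIPK3 through the RHIM adaptor TRIF, went from 68.0 ± 11.4 CPM down to 23.8 ± 2.92 CPM (SD, n = 4 each), and the log2 fold change was -1.51 (edgeR adjusted p = 5.87e-06). Eif2ak2, which encodes the kinase PKR, went from 196.9 ± 9.84 down to 99.1 ± 14.4 CPM (SD, n = 4 each). Of the downstream caspases and the mitochondrial arm 3 of 10 were lower and 1 was higher, with the share lower near the 24.0% of all genes tested. The genes with the smallest p there were Bid, the caspase-8 substrate that links death receptors to mitochondria, with a log2 fold change of -0.65, and Diablo, an antagonist of inhibitor of apoptosis proteins, with -0.64. Bid overlaps a gene on the opposite strand by 17.7% of its exonic bases and Diablo overlaps others by 19.3% on the same and 23.5% on the opposite strand.

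Among 13 tested genes of the membrane step of MLKL and its repair, 5 were lower and 1 was higher, again beside 24.0% and 21.3% of all genes tested. Chmp4b, a subunit of the ESCRT-III complex that sheds damaged membrane, fell from 437.3 ± 26.3 to 318.3 ± 13.5 CPM, and Vps4b, the ATPase that recycles it, from 264.7 ± 6.60 to 187.7 ± 6.77 CPM (SD, n = 4 each). Of the genes of RIPK protein turnover 1 of 7 was lower and 1 higher, a share lower that was under the background. Peli1, a ubiquitin ligase, had a log2 fold change of -0.50 and Stub1, the ligase CHIP, had 0.20, although 42.3% of its exon length lies opposite Jmjd8 on the other strand. Adjusted p for these 4 genes lay between 8.38e-06 and 0.0187 from edgeR.

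**Figure D4:**
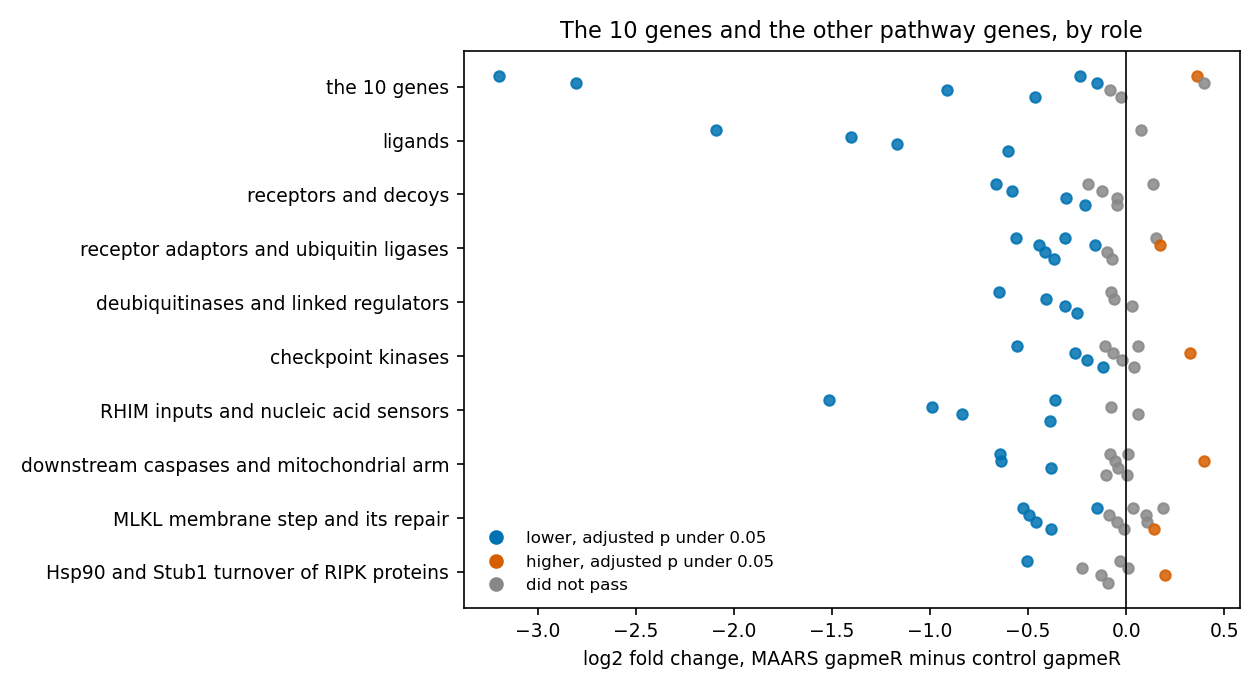
Log2 fold change of the 10 genes and of the 78 other pathway genes tested, by role, with points coloured by call. Ligands and RHIM inputs have the lowest medians among the other genes, -1.17 and -0.39, and 5 of the 78 other genes are called higher.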

How the data were processed

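RNA-Seq of ribodepleted RNA from 4 control and 4 MAARS gapmeR libraries was used. The authors trimmed reads with Trimmomatic 0.36, aligned them with STAR 2.5.2b to mm10 (GRCm38) with Ensembl release 79 transcripts, and counted them with featureCounts of Subread 1.5.2 (versions per the submitters' processing notes); the deposited values are raw counts per gene, with no normalization. The strand and multi-mapping settings are not given in the sources used here.

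From these counts, genes were filtered with filterByExpr (minimum count 10, minimum total 15), scaled with TMM factors (0.955 to 1.03) and tested with glmQLFTest in edgeR 4.0.16 on R 4.3.3. Alternatives used DESeq2 1.42.0, the tool of the study, and limma 3.58.1. Ratios within libraries were compared by two-sided exact permutation tests over 70 splits (scipy 1.17.1). The script was tested on simulated data. Symbols, positions and exon unions came from GENCODE M21 (GRCm38), which matched 99.47% of the identifiers. No 2 libraries of a group were alike within sampling noise (chi-square of 4.02 to 14.1 per gene).

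The members, the pathway list and the reference list were chosen with earlier results of these data known. Named pathway genes are the 2 with the smallest p in each of 9 role groups. The AANNGAAA search and the ATTTA counts (in regions of at least 50 bases) were added after promoter windows and results had been seen. Protein sequences were not used here.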

Additional observations from a re-analysis of the deposited data

Results flagged for a closer look

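In each group of 4 libraries, the highest or lowest value was compared with its nearest neighbour for the 10 genes, MAARS, the 18 named pathway genes and the 4 ratios. Of 66 such groups, 3 (4.55%) had a value whose gap, as a share of the range, was over Dixon's 95% critical value, and chance gives about 1 in 20. Fadd in control replicate 2 was low, at 31.1 CPM against 33.5 to 34.0 CPM in the other controls. Casp8 in MAARS gapmeR replicate 13 was high, at 100.5 CPM against 92.9 to 94.2 CPM, and this library set the narrow distance between the groups for Casp8. Vps4b in control replicate 7 was low, at 255 CPM against 267 to 269 CPM.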

How the results depend on the processing

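Of the 10 genes, Zbp1, Tnfsf10, Mlkl, Fadd and Cflar kept their direction and stayed called under RLE and upper-quartile factors, DESeq2, limma-voom, both other filters and each library left out. The log2 fold change of Zbp1 ran from -3.45 to -3.01, of Tnfsf10 from -3.20 to -2.61, of Mlkl from -0.99 to -0.85, of Fadd from -0.51 to -0.40 and of Cflar from -0.26 to -0.17. The number of genes lower was between 5 and 6 with a library left out. It was 3 (Zbp1, Tnfsf10 and Mlkl) when a fold of at least 1.5 was also asked, against 6.31% of all genes tested. The number higher was 2 with upper-quartile factors, against 3622 of all 13051 genes tested, and between 0 and 2 with a library left out. With the fold of 1.5 it was 0, against 7.35% of all genes tested. Leaving out control replicates 2, 6 or 7 or MAARS gapmeR replicates 9, 13 or 15 gave 0 genes higher in edgeR, with 0 to 2 at an unadjusted p under 0.05, and DESeq2 and limma-voom on all libraries gave 1. Among the other pathway genes, 11 were lower and 0 higher with the fold of 1.5, beside the same 6.31% and 7.35%. With upper-quartile factors 9 were higher. With a library left out, between 33 and 36 were lower and between 3 (without control replicate 7) and 6 higher. The log2 fold change of MAARS ran from -1.01 to -0.88 and stayed called in every alternative. The differences in ratio ran from -3.45 to -3.01 for Zbp1 to Ripk3 and from -0.82 to -0.71 for Mlkl to Casp8 with a library left out, where 3 against 4 cannot reach 0.05. The cause of these differences was not tested. No paired analysis was possible because the groups share no replicate number. Tnfsf10, Tnfrsf10b and Fas had the fewest counts of the 10 genes, with 27, 54 and 101 in their lowest libraries.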
